A study of Mus musculus with 12 samples.

Results

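Phagocytes clear dying cells by efferocytosis, and the genes described here encode the receptors, the soluble bridges and the scramblase that let a macrophage recognize an apoptotic cell. They were chosen by symbol, as the rows of the normalized count table that carry one of 10 names (Mertk, Axl, Tyro3, Gas6, Pros1, Mfge8, Stab1, Timd4, Megf10 and Xkr8). Of these, 9 were listed among 18376 genes, and Megf10 was not analysed here. The 12 libraries were made from BMDMs, short for bone marrow-derived macrophages, a primary culture obtained by maturing mouse marrow progenitors in a dish. The progenitors came from adult wild-type C57BL/6J mice, and all 4 groups received 50 ng/ml M-CSF, the growth factor that drives macrophage differentiation. The CTRL group had no further addition, the Act group had 50 ng/ml recombinant activin A, the FST group had 250 ng/ml FST288, and the Act + FST group had both at these doses. Cultures were harvested after 6 days, and each group holds 3 libraries. Activin A is a cytokine of the TGF-beta family, and FST288 is a form of follistatin that binds it and keeps it from its receptors. The cells were grown without apoptotic cells being named as an addition, and uptake itself was not among the measurements used here.

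A dying cell moves phosphatidylserine, a lipid normally kept on the inner face of the plasma membrane, to its surface, where it serves as an eat-me signal. Xkr8 is a scramblase that is cut by caspases and carries out this exposure in the dying cell. Some receptors bind the lipid directly, as TIM-4 (Timd4) and stabilin-1 (Stab1) do. Others need a bridge. GAS6 and protein S (Pros1) bind phosphatidylserine with one end and the TAM receptor tyrosine kinases TYRO3, AXL and MERTK with the other, and MFG-E8 links the lipid to alpha-v integrins. MERTK is known as the TAM receptor of resting and anti-inflammatory macrophages and uses both ligands, whereas AXL binds GAS6 and is induced in activated phagocytes. In the testis, from whose inflammation this study took its question, uptake of dying germ cells and of residual bodies is a continuous task. Which testicular cells carry it out was not studied here.

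Activin signals through SMAD2 and SMAD3, so the 250 bases before the RefSeq start of each gene (build GRCm38.p6) were searched on both strands for letters that SMAD proteins can bind. Entries were found for 8 of the 10 genes. The 4 sequences shown are those of Axl, the member that rose with activin A, of its relative Mertk, and of the bridges Gas6 and Mfge8, read 5′ to 3′ on the strand of the gene. Capitals mark CAGAC, on either strand, and GGCGCC.
Axl: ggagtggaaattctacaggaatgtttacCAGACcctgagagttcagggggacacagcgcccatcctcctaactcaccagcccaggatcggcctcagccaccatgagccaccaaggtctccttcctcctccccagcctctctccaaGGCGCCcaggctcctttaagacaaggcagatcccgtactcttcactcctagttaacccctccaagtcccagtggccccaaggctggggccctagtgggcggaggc
Mertk: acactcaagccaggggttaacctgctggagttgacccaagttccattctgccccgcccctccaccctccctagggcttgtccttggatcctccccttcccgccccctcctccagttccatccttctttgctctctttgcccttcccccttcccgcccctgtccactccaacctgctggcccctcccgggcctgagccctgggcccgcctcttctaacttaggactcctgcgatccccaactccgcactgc
Gas6: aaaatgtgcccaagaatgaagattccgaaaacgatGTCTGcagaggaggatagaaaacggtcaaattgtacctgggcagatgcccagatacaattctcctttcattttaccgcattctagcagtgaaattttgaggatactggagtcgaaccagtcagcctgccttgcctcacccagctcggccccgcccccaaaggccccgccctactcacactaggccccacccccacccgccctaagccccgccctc
Mfge8: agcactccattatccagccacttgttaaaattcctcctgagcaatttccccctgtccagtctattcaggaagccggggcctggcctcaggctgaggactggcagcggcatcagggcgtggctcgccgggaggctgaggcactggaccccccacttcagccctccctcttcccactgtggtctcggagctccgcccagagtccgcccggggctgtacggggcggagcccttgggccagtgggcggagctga
The Axl sequence lies at chr7:25788734-25788983 on the minus strand, Mertk at chr2:128698665-128698914 on the plus strand, Gas6 at chr8:13494536-13494785 on the minus strand, and Mfge8 at chr7:79149061-79149310 on the minus strand. CAGAC occurred once before Axl and once before Gas6, and not before Mertk or Mfge8. Counted over all entries, 4 of 8 members held it, against 42.2% of 32851 promoters of the same length. Among the 8, GGCGCC was found before Axl only, and 9.59% of all promoters held it. The SP1 letters GGGCGG, which GC-rich starts often carry, were present in 6 of the 8, against 32.7% of promoters. AP-1 letters (TGAGTCA, 4.46% of promoters) and PU.1 letters (GAGGAAGT, 2.44% of promoters) were in none of the 8. These matches describe letters only, and factor binding was not measured here.

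The deposited values are gene counts that were scaled by library, called normalized counts here, and totals ran from 5643708 to 5955400 per library. Because of the scaling, these totals do not show sequencing depth. All 7 macrophage markers (Adgre1, Csf1r, Cd68, Itgam, Fcgr1, Lyz2 and Mrc1) were listed, with gene means between 581 and 3346, and their sum ranged from 12076 to 13404 in CTRL and from 11336 to 12072 in Act. Of the 7, Mrc1 passed the test as lower in Act, with a mean of 2285 against 3244 in CTRL, and the other 6 did not pass. Of the markers of other cells, 9 of 10 fibroblast genes were listed (Lum was not), and they summed to 81 to 126 in CTRL and 124 to 301 in Act, against 72 to 171 with both agents and 66 to 185 with FST288 alone. The upper end was replicate 1 in every group. In Act it stood at 301 against 129 and 124, mainly through Col1a1 (83, 8 and 3) and Col1a2 (109, 9 and 6). Other fibroblast genes differed in every replicate. Fap had 26, 24 and 19 in CTRL and 36, 52 and 50 in Act, and Pdgfrb 22, 31 and 22 against 51, 41 and 43. Cxcl12 was lower in Act, at 13, 14 and 16 against 22, 36 and 37. Of 5 fibroblast genes tested, 1 passed as higher and 1 as lower, so Fap and Pdgfrb did not both pass. Without replicate 1 of every group, Axl, Tyro3, Mfge8 and Gas6 still passed in Act versus CTRL. The 7 neutrophil genes summed to 840 to 1124 in CTRL and 658 to 964 in Act, the 7 dendritic cell genes to 73 to 162 and 111 to 175, and the 4 listed of 7 lymphocyte genes to 8 to 28 and 9 to 23. Within these sums, Mpo fell from a mean of 98.7 in CTRL to 24.0 in Act, Elane from 37.0 to 9.67, and Cd209a from 29.3 to 7.33. Other genes of these lists did not fall alike. S100a8 had means of 125 in CTRL and 134 in Act, S100a9 203 and 214, and Ngp 448 and 420. Flt3 (17 and 34) and Dpp4 (26 and 49.3) had higher means in Act. Of 7 neutrophil genes tested, 2 passed as lower and 0 as higher, and of 6 dendritic cell genes, 1 and 0. The 5 listed of 6 endothelial genes summed to 1811 to 2217 in CTRL and 1081 to 1341 in Act, nearly all of it Vwf. The 5 activin response genes of a list all passed the test in Act versus CTRL, where 20.2% of all genes tested did. Among them was Pmepa1, with 14, 50 and 9 in CTRL and 756, 792 and 871 in Act. This list was drawn up with earlier results of these data known, so it is no independent check. The part of other cell types in the results below was not tested. In bulk RNA, fewer cells of a type and less RNA per cell cannot be told apart. Whether the 3 libraries of a group came from separate mice or cultures is not given by the labels, so p-values measure the spread between these libraries, which may be technical.

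Per exonic length, the members fell into a high, a middle and a low tier in untreated macrophages. Gas6 stood highest in CTRL with 692 normalized counts per 1000 exonic bases (range 670 to 705), above Stab1 with 601 (570 to 620), and the ranges did not overlap. Mertk followed with 385 (378 to 390). Mfge8 had 161 (158 to 166), Pros1 140 (131 to 149) and Axl 135 (95.6 to 164). Within this middle tier Axl overlapped both neighbours, whereas Mfge8 and Pros1 did not overlap each other. Xkr8 was lower, at 40.9 (37.3 to 44.5). Timd4 at 3.22 (1.38 to 5.52) and Tyro3 at 1.72 (1.29 to 2.26) were near the floor of the table and overlapped. With activin A the order changed at 2 places. Mfge8 (107 to 129) came below Pros1 (132 to 138), and Axl left the middle tier for 425 (416 to 432) per 1000 bases, beside Mertk at 404 (393 to 419), and these ranges overlapped by a small margin. In that group Gas6 (558 to 608) and Stab1 (564 to 589) overlapped as well.

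**Figure D1:**
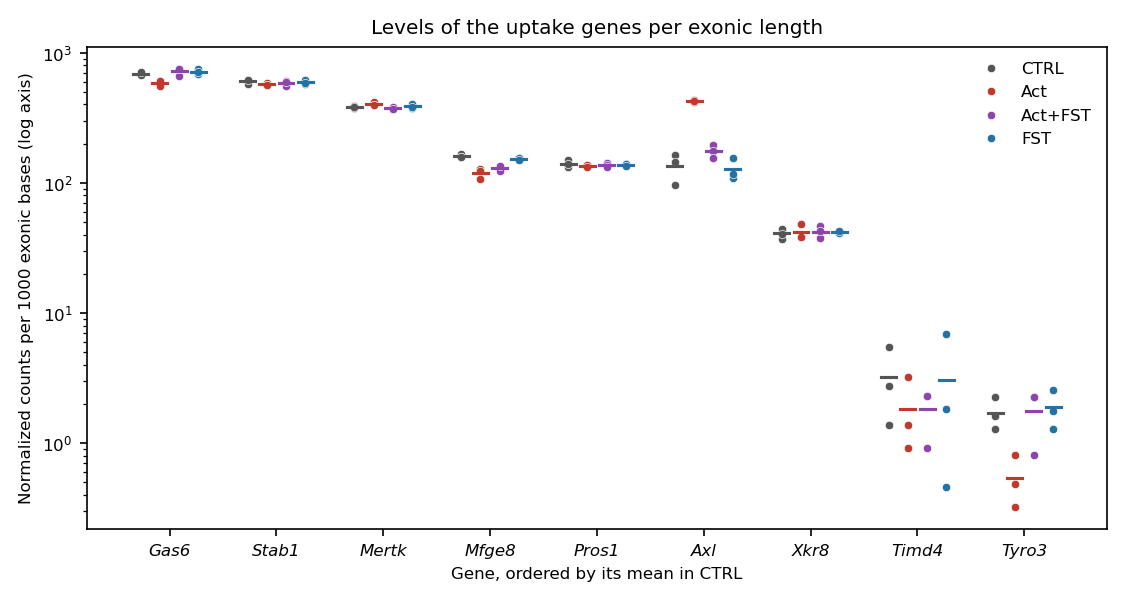
Normalized counts per 1000 exonic bases (log axis) of the 9 listed genes, ordered by their CTRL mean, with a point per library and a bar at the mean of each group (CTRL, Act, Act+FST and FST, 3 libraries each). Axl moved from 135 in CTRL to 425 in Act, next to Mertk, while Timd4 and Tyro3 stayed below 10 in all groups.

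In the comparison of activin A with no activin A (Act versus CTRL), 4 of the 9 members passed the limma test at an adjusted p of at most 0.05, where 20.2% of the 14318 genes tested did. Axl rose (1 of 9, with 10.3% of all genes higher), and Tyro3, Mfge8 and Gas6 fell (3 of 9, with 9.97% lower). A fold change of at least 2 together with the adjusted p defines a differentially expressed gene (DEG), which 5.66% of all genes were. The 2 DEGs among the members were Axl, on the higher side (2.58% of all genes), and Tyro3, on the lower side (3.09%). The median log2 fold change of the 9 was −0.07, beside 0.00 over all genes, and the median size of the change was 0.23, beside 0.14. The ranges of both groups were apart for 5 of the 9, and for 35.7% of all genes.

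Axl (ENSMUSG00000002602, chr7:25757273-25788705, minus strand) is a TAM receptor with GAS6 as its ligand. Its normalized counts were 826, 731 and 481 in CTRL replicates 1 to 3 and 2176, 2096 and 2140 in Act. All activin A libraries lay above every other library, and the CTRL libraries were more scattered (679 ± 178, SD, n = 3) than the Act libraries (2137 ± 40.1). The fold change was 3.22, or 1.69 on the log2(normalized count + 1) scale (SE 0.17, 95% interval 1.31 to 2.07, adjusted p = 3.0e-05, limma). Leaving out each library in turn gave log2 values from 1.46 to 1.85. With FST288 added to activin A, Axl had 984, 887 and 781, and with FST288 alone 784, 547 and 585. The Act + FST libraries lay far below Act and overlapped the highest CTRL library.

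Mertk (ENSMUSG00000014361, chr2:128698956-128802894, plus strand), the TAM receptor most associated with macrophage efferocytosis, did not pass the test in this comparison. It had 1690, 1641 and 1673 in CTRL and 1817, 1732 and 1704 in Act. The Act libraries were all above the CTRL libraries, by a small margin. The log2 difference was 0.07 (95% interval −0.02 to 0.16), with an adjusted p of 0.29 (limma). In Act + FST Mertk had 1596, 1671 and 1596, and in FST 1625, 1756 and 1666.

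Tyro3 (ENSMUSG00000027298, chr2:119797733-119818104, plus strand), the TAM receptor best known from the nervous system, was listed at very low values. It had 8, 10 and 14 in CTRL, 5, 3 and 2 in Act. With both agents it had 14, 5 and 14, and with FST288 alone 8, 16 and 11. The Act libraries were below all CTRL libraries, and the highest of them equalled the lowest Act + FST library. The log2 change in Act versus CTRL was −1.46 (SE 0.42, 95% interval −2.37 to −0.54, adjusted p = 0.028, limma). This call did not hold without CTRL replicate 2 or 3 or Act replicate 2 or 3, each taken alone, with adjusted p up to 0.11 (limma).

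The makeup of the TAM receptors was compared next. Per exonic length, Mertk made up 70.2%, 72.0% and 79.8% of the sum of Mertk, Axl and Tyro3 in CTRL and 49.2%, 48.9% and 48.0% in Act. The remainder was nearly all Axl, since Tyro3 took at most 0.5% in any library. The mean ratio of Axl to Mertk was 0.351 in CTRL and 1.05 in Act, against 0.470 with both agents and 0.329 with FST288 alone. The Mertk share was 25.3 percentage points lower in Act than in CTRL and 19.2 points lower than in Act + FST, both at p = 0.1 (two-sided exact permutation test over 3 against 3 libraries, which cannot go lower).

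**Figure D2:**
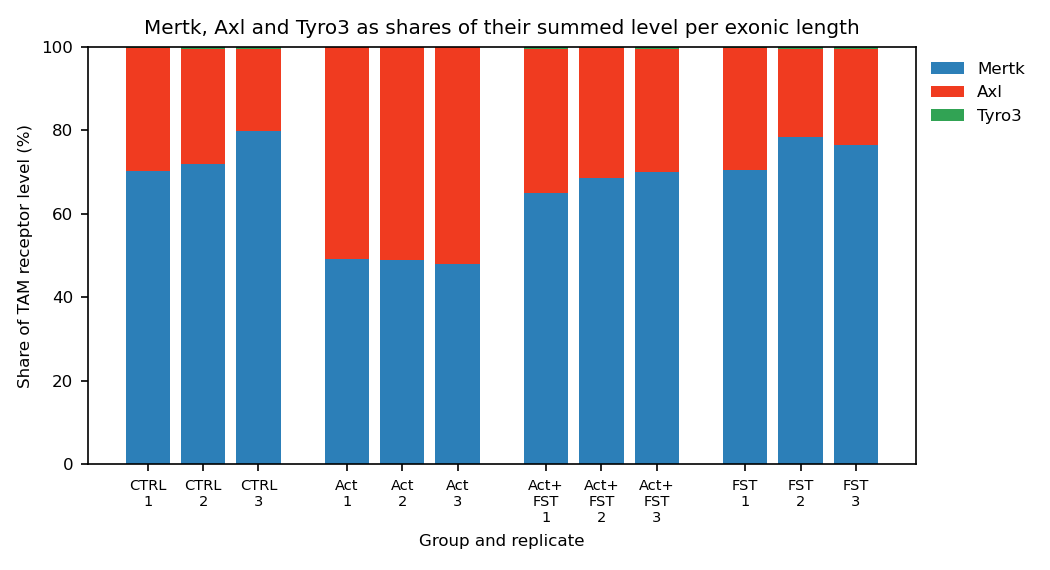
Share (%) of Mertk, Axl and Tyro3 in their summed level per exonic length, with a stacked bar for each of the 12 libraries. Mertk made up 48.0% to 49.2% in the 3 Act libraries and at least 65.0% in every other library.

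Of the bridges, both that fell did so by less than a fold change of 2. Gas6 (ENSMUSG00000031451, chr8:13465374-13494490, minus strand), the ligand of all TAM receptors, had 1784, 1707 and 1797 in CTRL and 1549, 1534 and 1422 in Act. Act lay below CTRL in every library. The log2 change was −0.23 (SE 0.06, 95% interval −0.36 to −0.11, adjusted p = 0.013, limma). Without CTRL replicate 3 or without Act replicate 3, its adjusted p was 0.052 and 0.060 (limma). In Act + FST it had 1680, 1908 and 1912, and in FST 1741, 1894 and 1807, both above Act throughout.

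Mfge8 (ENSMUSG00000030605, chr7:79133768-79149060, minus strand), which ties phosphatidylserine to alpha-v integrins, had 777, 744 and 743 in CTRL and 604, 500 and 582 in Act. These groups were apart. The log2 change was −0.43 (SE 0.06, 95% interval −0.57 to −0.29, adjusted p = 4.3e-04, limma), and it passed the test whichever library was left out. In Act + FST the values were 634, 578 and 627, close to Act, and in FST 725, 723 and 708.

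Pros1 (ENSMUSG00000022912, chr16:62854307-62929346, plus strand), the gene of protein S, had 608, 537 and 569 in CTRL and 565, 557 and 540 in Act. The groups overlapped, and the log2 difference of −0.04 (95% interval −0.15 to 0.06) did not pass (adjusted p = 0.62, limma). Its group means in Act + FST and FST were 559 and 563, and the 12 libraries ranged from 537 to 608.

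Among the receptors that bind phosphatidylserine directly, Stab1 (ENSMUSG00000042286, chr14:31139013-31168641, minus strand) had the highest mean normalized count of all genes in the table. Counts also depend on length, and Stab1 has 10288 exonic bases. Per exonic base, Stab1 ranked 24, and no gene with a known length averaged more than 0.883 per base. The rank by count is therefore not a rank of transcript abundance. Whether a limit on the counts per base shaped it was not tested. Stab1 had 6305, 5862 and 6378 in CTRL and 6064, 5827 and 5803 in Act. These overlapped, with a log2 difference of −0.07 (95% interval −0.20 to 0.06, adjusted p = 0.50, limma). Timd4 (ENSMUSG00000055546, chr11:46810800-46844332, plus strand), typical of resident tissue macrophages, was near 0, with 12, 6 and 3 in CTRL and 7, 3 and 2 in Act. With both agents it had 5, 5 and 2, and with FST288 alone 15, 1 and 4. The groups overlapped, and the interval of its log2 difference ran from −2.15 to 0.87 (adjusted p = 0.59, limma). The scramblase gene Xkr8 (ENSMUSG00000037752, chr4:132724897-132732546, minus strand) had 161, 192 and 176 in CTRL and 208, 166 and 165 in Act, with a log2 difference of 0.02 (95% interval −0.21 to 0.25, adjusted p = 0.92, limma).

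**Figure D3:**
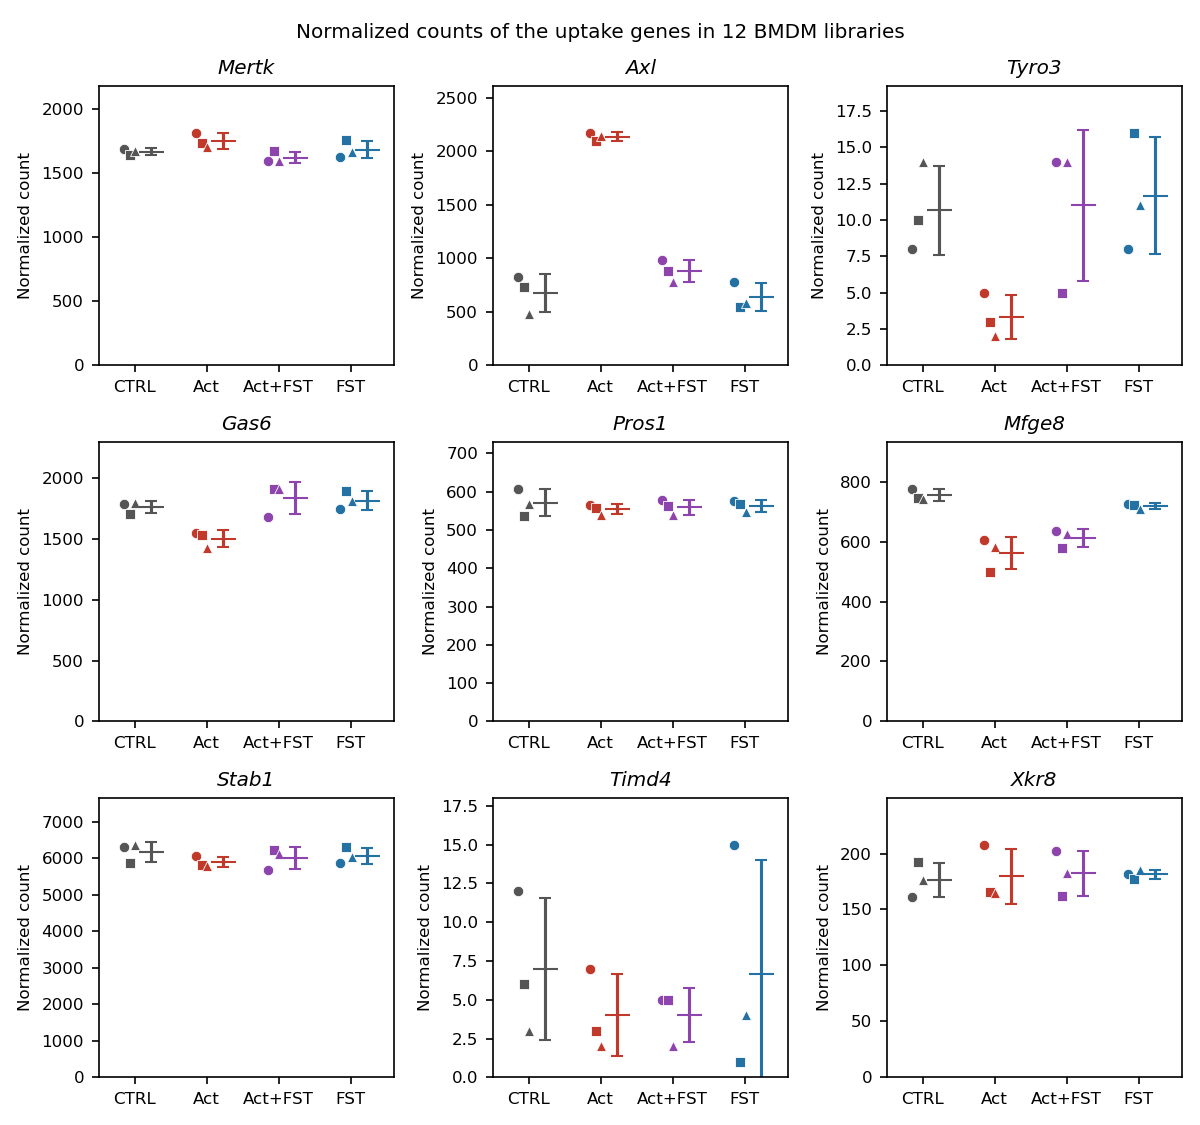
Normalized count of each listed gene in every library (circles, squares and triangles for replicates 1, 2 and 3) with the mean and SD of each group; every axis starts at 0, where the SD bar of Timd4 in FST is cut. Axl stands at 2096 to 2176 in Act against at most 984 elsewhere, while Mertk, Pros1, Stab1, Timd4 and Xkr8 passed the test in none of the 4 comparisons between groups.

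Whether the high levels of some members bear on the size of their changes, or on the ranks, tiers and shares above, was not tested. Gas6 had 0.678 normalized counts per exonic base, Stab1 0.587, Mertk 0.388 and Axl 0.216 over the 12 libraries. The median of the 18359 genes with an exonic length was 0.0357, and none of them exceeded 0.883. Values were also corrected as if reads with the same start position had been counted once. The log2 change in Act versus CTRL was then 1.97 for Axl (1.69 uncorrected) and −0.40 for Gas6 (−0.23 uncorrected). Both passed the test (adjusted p = 1.4e-05 and 0.012, limma). Whether duplicate reads were removed is not given in the sources used here. Because the values are scaled, the correction cannot show it. Between 0 and 1.87% of the 30-base words of the listed members occur in other genes, none in another member, and the exons of Gas6 and Stab1 share 34 and 112 bases with genes on the opposite strand (Tmem255b and Nt5dc2).

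To see how far FST288 removed the effect of activin A, Act was compared with Act + FST. This comparison uses the same Act libraries as the one above. Passing the test were 3 of 9 members, against 21.3% of all genes, with Axl higher in Act (11.1% of all genes) and Gas6 and Tyro3 lower (10.2%). Axl and Tyro3 were DEGs, as were 5.83% of all genes, 2.72% on the higher and 3.11% on the lower side. For Axl the log2 difference was 1.28 (SE 0.17, 95% interval 0.90 to 1.66, adjusted p = 2.5e-04, limma), a fold of 2.43. Gas6 differed by −0.29 (adjusted p = 0.0035, limma) and Tyro3 by −1.41 (adjusted p = 0.031, limma), the latter not passing without Act replicate 2 or 3 or Act + FST replicate 1 or 3. Mertk was 0.11 higher in Act (95% interval 0.02 to 0.20) and did not pass (adjusted p = 0.085), but it did with the replicate number as a block (adjusted p = 0.036, limma). Mfge8 differed by −0.13 (95% interval −0.27 to 0.01, adjusted p = 0.18, limma). Groups were apart for Axl, Gas6 and Mertk, and for 34.1% of all genes.

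Against CTRL, neither Act + FST nor FST gave a call for any member, and 0% of all genes passed limma's adjusted p in either. At an unadjusted p under 0.05, 655 genes (4.57%) differed in Act + FST and 299 (2.09%) in FST. Axl and Mfge8 were among the former, and no member was among the latter. Axl in Act + FST was 0.41 above CTRL on the log2 scale (95% interval 0.03 to 0.79) and higher in 3 of 3 libraries of the same number, with an adjusted p of 1 (limma). Mfge8 was 0.30 lower than in CTRL (log2 difference −0.30, 95% interval −0.44 to −0.16), with an adjusted p of 0.42 that became 0.023 with the replicate block (limma). Its Act + FST libraries were all below CTRL, the only member for which these groups were apart (6.68% of all genes). In FST versus CTRL, Mfge8 was again the member whose groups did not overlap (5.55% of all genes), with a log2 difference of −0.07 (95% interval −0.21 to 0.07). The other members had log2 differences in FST between −0.40 (Timd4) and 0.10 (Tyro3).

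Whether the activin A effect itself differed with and without FST288 was tested as an interaction, (Act − CTRL) minus (Act + FST − FST). Axl passed, as 1 of 9 members and beside 6.74% of all genes, with a difference of 1.21 in log2 fold change (SE 0.25, 95% interval 0.67 to 1.74, adjusted p = 0.012, limma). Gas6 had −0.25 (95% interval −0.42 to −0.07) and did not pass (adjusted p = 0.097), but it did with the replicate block (adjusted p = 0.031, limma). Mfge8 (−0.20, adjusted p = 0.24, limma) and Tyro3 (−1.31, adjusted p = 0.25, limma) did not pass.

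**Figure D4:**
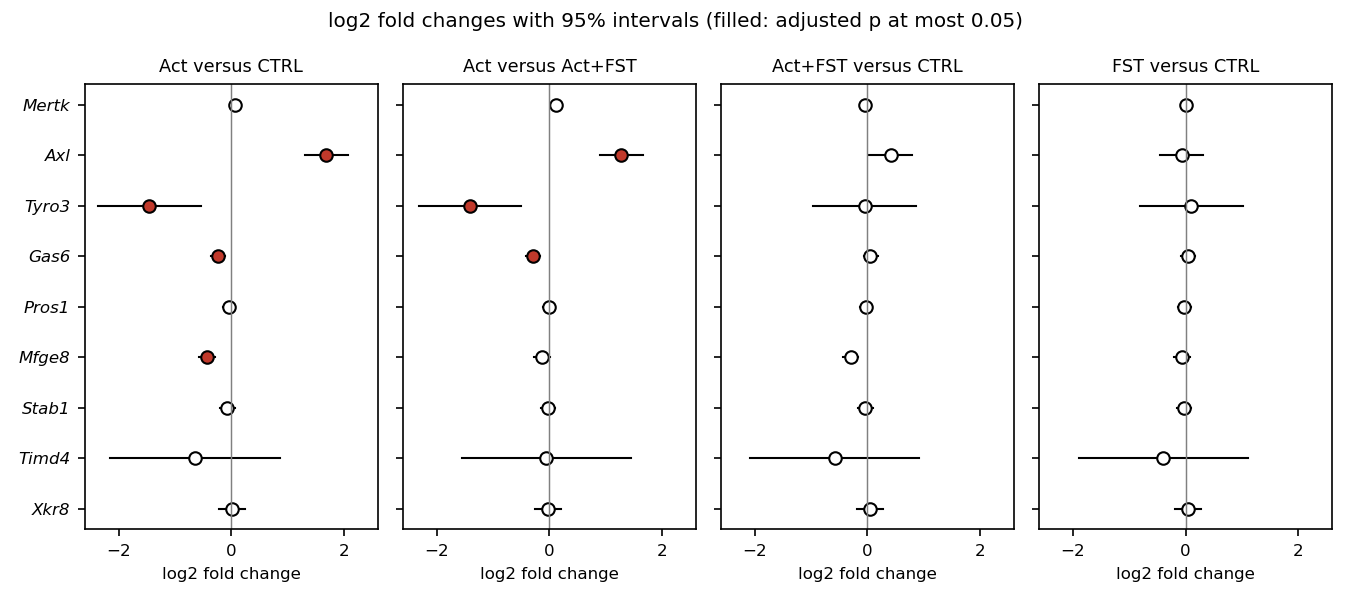
log2 fold changes of the 9 listed genes with 95% intervals in the 4 comparisons, on log2(normalized count + 1), with filled points at an adjusted p of at most 0.05 (limma). Filled points are 4 in Act versus CTRL (Axl, Tyro3, Gas6, Mfge8), 3 in Act versus Act+FST, and 0 in the others.

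Other genes of the pathway were read from 8 lists, of which 87 genes were tested. In Act versus CTRL, 22 of these were higher and 11 lower, where 10.3% of all genes were higher and 9.97% lower, and 0 passed limma's adjusted p in Act + FST or FST versus CTRL (8 genes and 1 gene at an unadjusted p under 0.05). With the replicate block, 30 were higher and 16 lower in Act versus CTRL, which adds 13 genes and loses 0. The block also added Marco, a scavenger receptor, in Act + FST versus CTRL (log2 difference 0.69, adjusted p = 0.57 without and 0.031 with the block, limma). Each rise or fall named from these lists passed limma's adjusted p. Of 16 other receptors of apoptotic cells tested, 5 were higher and 4 lower. Olr1, the gene of the scavenger receptor LOX-1, had 10, 8 and 3 in CTRL and 82, 54 and 97 in Act (log2 change 3.38). The integrin subunits that receive MFG-E8 went different ways. Itgb3 fell from 367, 343 and 379 to 57, 85 and 37 (log2 change −2.66), whereas Itgb5 rose by 0.43 on the log2 scale. The alpha-v subunit itself, Itgav, named after its values were seen, rose from 784, 547 and 618 to 1418, 1178 and 1156 (log2 change 0.95). Cd36, a scavenger receptor that works with thrombospondin, was lower in Act, at 783, 825 and 673 against 1727, 1423 and 1412. Of 8 other bridging proteins, C1qa, a chain of the complement component C1q, rose (log2 change 0.42), and Anxa1 (−0.38) and Lgals3 (−0.27), the genes of annexin A1 and galectin-3, fell. With the block, 2 of the 8 were higher and 3 lower.

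Inside the phagocyte, 14 genes of the engulfment machinery were tested, of which 1 was higher and 2 were lower (2 and 4 with the block). Ptk2, which encodes focal adhesion kinase, fell from 180, 131 and 148 to 44, 65 and 32 (log2 change −1.73). Vav1 rose by 0.20 and Dock2 changed by −0.17, and the call for Dock2 was lost when some single libraries were left out. Of 9 genes for scramblases, flippases and their partner proteins, 1 passed (3 with the block), Xkr5 (log2 change −1.73), a relative of Xkr8 listed at 21, 24 and 24 in CTRL and 5, 8 and 6 in Act. Of 10 genes for attracting or restraining signals, 5 were higher and 0 lower. Cx3cr1, the receptor for the attractant fractalkine, rose by 3.41, from 205, 502 and 80 in CTRL to 2207, 2123 and 2142 in Act, with the untreated libraries widely scattered. Panx1, a channel that releases nucleotides, rose by 0.41, S1pr1 by 0.39 and Pecam1 by 1.12, the last no longer passing when some single libraries were left out.

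Downstream of uptake, 3 of 13 genes for digestion and metabolism of the cargo were higher and 0 lower (5 and 0 with the block). Slc2a1, a glucose transporter, rose by 0.76 on the log2 scale, and Atg5 and Ucp2 by 0.23 and 0.24. Of 10 nuclear receptors and factors known to control uptake genes, 3 were higher and 2 lower. Klf4 fell from 165, 153 and 158 to 71, 65 and 66 (log2 change −1.22) and Pparg by 0.93, whereas Rxra rose by 0.30. Of 7 genes for shedding and feedback of TAM receptors, 4 were higher and 0 lower. Socs3, a cytokine signalling inhibitor, rose by 1.15, from 116, 131 and 99 to 243, 245 and 282. Adam17, a protease that sheds MERTK and other surface proteins, rose by 0.28. Ifnar1 rose by 0.19, and it did not pass without some single libraries.

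**Figure D5:**
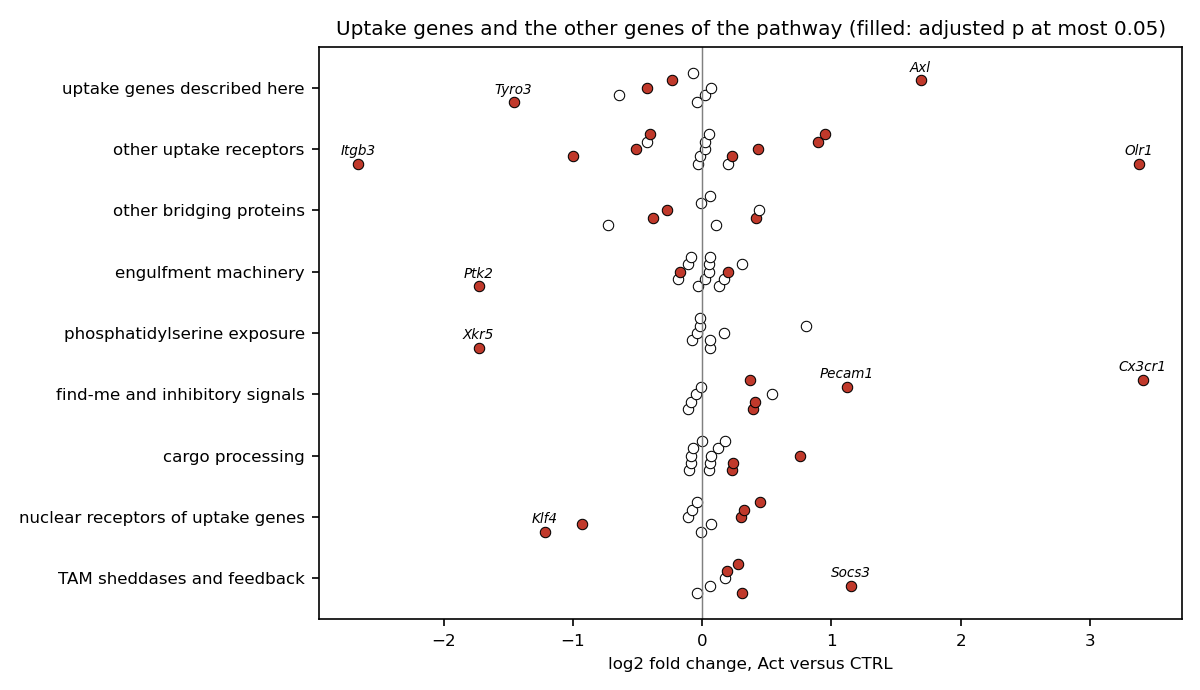
log2 fold change in Act versus CTRL of the 9 listed genes and of the tested genes in 8 other lists of the pathway, a point per gene, filled at an adjusted p of at most 0.05 (limma), with names for DEGs. Olr1 and Cx3cr1 lie above 3 and Itgb3 is lowest at −2.66.

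For both members called as DEGs, the genes most like them over the 12 libraries were sought among 10634 genes with a mean of at least 50. The groups are shared by all genes, so a high correlation mostly describes the same difference between groups. For Axl, these were Mfng (Pearson r = 0.984), Rnf19b (r = 0.979) and Gpr84 (r = 0.976). Gpr84 had 78, 78 and 54 in CTRL and 305, 303 and 369 in Act, and Mfng had 119, 123 and 91 against 312, 334 and 352. For Tyro3, at its very low values, they were Gtf2b (r = 0.954), Mpzl1 (r = 0.933) and Tmem209 (r = 0.933). Between the members themselves, Axl had r = 0.46 with Mertk, −0.85 with Tyro3, −0.85 with Gas6 and −0.78 with Mfge8. With the other members, r was −0.52 (Stab1), −0.14 (Pros1), 0.03 (Timd4) and 0.00 (Xkr8).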

How the data were processed

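RNA sequencing covered 12 BMDM libraries, 3 per group. Per the labels and methods, the authors used Trimmomatic 0.39 for trimming, STAR 2.7.9a for alignment to mm10, and featureCounts 2.0.2 for exonic reads, without reads that fit more than 1 gene or position. A stranded kit was used, and the strand setting of the counting is not given in the sources used here. The deposited values are a score, namely gene counts scaled by library and rounded to whole numbers by the authors. Original depth is therefore unknown, and the replicate spread includes counting error.

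Values were analysed as log2(normalized count + 1) with R 4.3.3 and the limma package, version 3.58.1 (moderated by empirical Bayes, with a mean trend), which took the place of the test planned for read counts. All 12 libraries entered 1 model of 4 group means. Tested were 14318 genes averaging 5 or more, including all 9 listed members, and p-values were adjusted by Benjamini-Hochberg over all of them. Tests were two-sided. On simulated data, 200 of 200 genes changed 3-fold in Act versus CTRL were called, with 1 false call among 14336 genes. The changed genes all had higher means than Tyro3 (9.17), and the simulated libraries were independent of each other. It therefore does not cover genes near the floor or libraries that deviate together. Same-numbered libraries deviated together (18 pairs, mean r = 0.312, range 0.157 to 0.481). Deviations from a group mean cancel within the group, so the value for differently numbered libraries (36 pairs, mean r = −0.155) largely follows from this. A fit with the replicate number as a block is therefore given where it changes a member's call. It is also given where the count of a list changes by more than 1.5 times. The replicate numbers come from the labels.

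Exonic lengths and positions came from GENCODE vM21 (GRCm38), in which 18359 of 18376 genes were found, and promoters from RefSeq. The members, the lists of pathway genes and markers, and the tests were chosen with earlier results of these data known. Itgav and Marco were named after their values were seen. Otherwise named are all members, up to 4 genes per list with the smallest adjusted p in Act versus CTRL, and 3 genes most like each DEG, except that some genes of the lists are not reported here. Alternatives were other pseudocounts, filters, scalings, fold thresholds and samples, and, chosen after seeing the data, a start-position correction and leaving out replicate 1 of every group.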

Additional observations from a re-analysis of the deposited data

Results flagged for a closer look

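The difference between the activin A effect on Axl without and with FST288 passed the test of the interaction. Axl was 1.69 higher on the log2 scale in Act than in CTRL, and the interaction was 1.21 (SE 0.25, adjusted p = 0.012, limma), with the Act libraries at 2096 to 2176 normalized counts and the Act + FST libraries at 781 to 984. Leaving out each library in turn gave interactions between 0.98 and 1.37.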

How the results depend on the processing

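Of 971 member values under the alternatives, 955 kept their side of the threshold, 12 lost and 4 gained a call. No value that passed in either fit changed its sign. Values that did not pass could change sign, such as Xkr8 in Act versus CTRL, at −0.09 to 0.08 with single libraries left out. With a pseudocount of 5, or a mean of at least 50, which removes Tyro3 and Timd4, 1 member was a DEG in both activin A comparisons in place of 2. The same number was found for Act versus Act + FST with only the groups compared and without replicate 1 of every group. A mean of at least 50 gave 364 DEGs in Act versus CTRL (811 in the test as reported) and 378 in Act versus Act + FST (835), and a fold change of 1.5 gave 1284 and 1300. With the replicate block, 4508 genes passed in Act versus CTRL (2896 without it), 4663 in Act versus Act + FST (3048), 80 with 6 DEGs and 1 member in Act + FST versus CTRL (0), and 2337 with 2 members in the interaction (965 and 1). Apart from Mertk, Mfge8 and Gas6 as given above, the block changed no other call among the members. Leaving out each library in turn, 2 to 4 members passed and 1 to 2 were DEGs in Act versus CTRL (2 passed without CTRL replicate 3 or Act replicate 3), 1 to 2 were DEGs in Act versus Act + FST, 0 to 1 genes passed in Act + FST versus CTRL (1 without Act + FST replicate 2), and 626 to 1048 genes and 1 to 2 members passed in the interaction, with Gas6 as the added member without Act + FST replicate 1 (adjusted p = 0.023, limma). The fewest genes passed without CTRL replicate 3 (626) and without FST replicate 1 (641). With the start-position correction, the difference in the Mertk share, Act minus Act + FST, was −22.3 percentage points. The cause of these shifts was not tested. Values near the floor limit Tyro3 and Timd4, and the scaled values do not show depth.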
